A study of Homo sapiens with 6 samples.

Results

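The peaks of RNA polymerase I (Pol I) and of RNA polymerase II (Pol II) were compared with each other in LNCaP, an established prostate cancer cell line that responds to androgen, given 1 µM BMH-21 for 6 h. All peaks of both lists were taken. The Pol I list holds 1932 peaks and the Pol II list 11540, together 13472 of the 84817 peaks in the 4 lists of the series. The Pol I library was made with the C-1 antibody and the Pol II library with the 4H8 antibody, labelled as directed to the C-terminal repeats phosphorylated at serine 5. The other ChIP libraries came from cells given the solvent DMSO (42547 Pol I and 28798 Pol II peaks), with 2 input libraries, which were not used here. There was 1 library per antibody and treatment, and therefore no replicate error and no test of any difference between the antibodies. Intervals are exact Clopper-Pearson 95% intervals for counting error alone. The lists hold no read counts and the depth is unknown, so depth and antibody cannot be told apart in the number of peaks. Positions are on hg19. No annotation of that build was used, and regions are named by coordinates.

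Pol I transcribes the ribosomal RNA precursor from the ribosomal DNA repeats in the nucleolus, and Pol II transcribes messenger RNAs and many noncoding RNAs. Phosphorylation of serine 5 in the C-terminal repeats of Pol II is placed near the start of transcription and is known as a mark of initiating and early elongating polymerase. BMH-21 intercalates into DNA and inhibits Pol I. The main ribosomal DNA arrays are largely absent from hg19. Whether reads from those arrays lie under any of the listed peaks could not be examined from peak lists.

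The lists differed in size more than in the kind of peak they held. Pol I peaks covered 0.694 Mb and Pol II peaks 4.97 Mb, which is 0.0231% and 0.165% of the length between the first and last listed peaks of the chromosomes. The median Pol I peak was 216 bp wide (quartiles 197 and 284 bp) and the median Pol II peak 269 bp (quartiles 236 and 353 bp). The Pol I list had 86 peaks over 1 kb and 1 over 10 kb, and the Pol II list 553 and 18. Both lists held every autosome, X and Y. The score of a peak is the authors' own value, from 50 upward, and was compared only within a list. The names of the peaks carry running numbers, and 87.7% of the Pol I numbers and 77.0% of the Pol II numbers were not in the lists. A BMH-21 peak overlapped a DMSO peak of the same antibody in 0 cases in either list. Regions without a listed peak can therefore still carry the polymerase.

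Most Pol I peaks had no Pol II peak on them, and nearly all Pol II peaks had no Pol I peak. A Pol II peak overlapped 184 Pol I peaks by 1 bp or more, 9.52% of the Pol I list (interval 8.25 to 10.9%). In the other direction 186 Pol II peaks were overlapped, 1.61% of the Pol II list (interval 1.39 to 1.86%). By length, 10.1% of the bases under Pol I peaks also lay under a Pol II peak and 1.41% of the bases under Pol II peaks lay under a Pol I peak. Pol II peaks covered 0.165% of the listed span, so the share of Pol I bases was far above the share of the span. In the DMSO lists 13.98% of Pol I peaks (interval 13.7 to 14.3%) and 20.5% of Pol II peaks (interval 20.03 to 20.97%) were overlapped, and the shares of bases were 11.8% and 15.1%. Both shares of peaks were lower after BMH-21, where both lists were also shorter. Running numbers in the peak names were absent more often after BMH-21, at 87.7% (Pol I) and 77.0% (Pol II). In the DMSO lists 23.3% and 48.1% were absent, so the lists of the treatments are not alike in what they leave out. With 1 library a side, the difference in overlap between treatments was not tested.

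Overlap continued into a neighbourhood of some kilobases. Within 1 kb of a peak of the other polymerase, edge to edge, lay 15% of Pol I peaks (290 of 1932) and 2.22% of Pol II peaks (256 of 11540). Within 10 kb of a Pol II peak lay 29.3% of Pol I peaks (567 of 1932), and within 100 kb 58.2%. Of the Pol II peaks, 5.42% lay within 10 kb of a Pol I peak (626 of 11540) and 22% within 100 kb (2537 of 11540). The midpoint of a Pol I peak was at a median of 60.1 kb from the nearest Pol II midpoint, with quartiles of 6.504 and 236 kb. Seen from Pol II, the median was 440 kb, with quartiles of 124 and 1157 kb. A Pol I peak over 100 kb from any Pol II midpoint was found 807 times (41.8%), and over 1 Mb 86 times (4.45%). For Pol II these counts were 9009 (78.1%) and 3363 (29.1%). The distance of a peak depends on how many peaks the other list holds, and the part of list length in the longer distances of Pol II peaks was not tested. Set against the DMSO Pol II list, which is longer, 3.62% of the same BMH-21 Pol I peaks were overlapped (70 peaks), and the median distance was 42.6 kb.

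**Figure D1:**
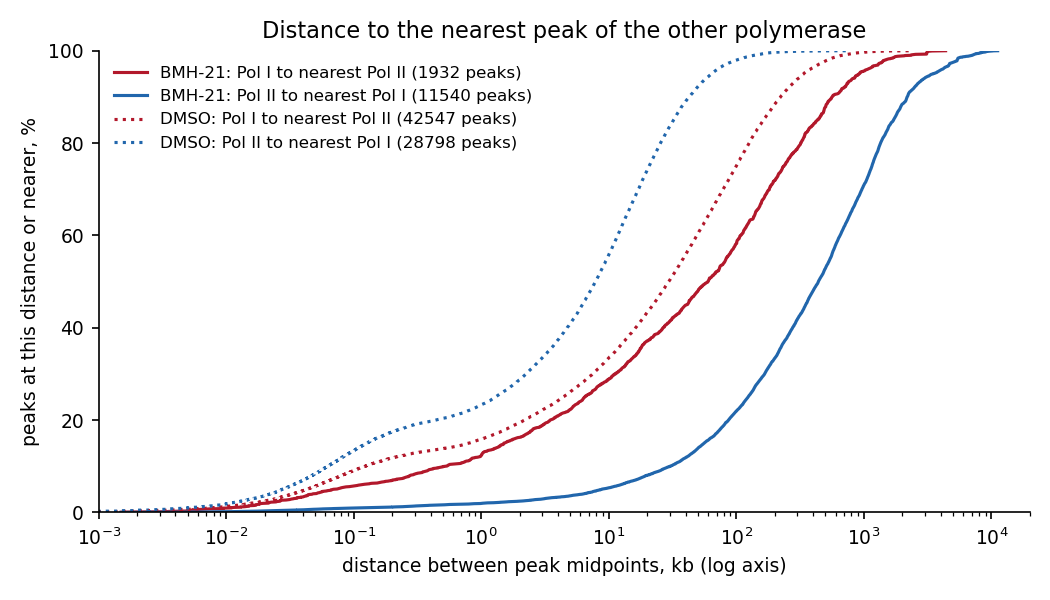
Cumulative share of peaks (y axis, percent) by the distance from each peak midpoint to the nearest midpoint of the other polymerase on the same chromosome (x axis, kb, log axis), with solid lines for BMH-21, dotted lines for DMSO, red for Pol I peaks and blue for Pol II peaks. After BMH-21 the Pol I curve passes its median at 60.1 kb and the Pol II curve at 440 kb, against 29.5 and 7.86 kb in DMSO.

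The overlapping peaks made 201 pairs, since a peak can meet several of the other list. In 54 pairs the Pol I peak lay inside the Pol II peak, in 47 the Pol II peak lay inside the Pol I peak, and in 100 each reached beyond the other. Midpoints in a pair were a median of 77.5 bp apart, and 78 pairs (38.8%) had midpoints within 50 bp. Both edges fell within 50 bp of each other in 34 pairs (16.9%, interval 12.01 to 22.8%), and in the DMSO lists in 666 of 6003 pairs (11.1%, interval 10.3 to 11.9%). Coincident edges depend on peak width, and the DMSO peaks in pairs were wider (median 504 bp for Pol I against 303 bp after BMH-21). The widths of paired peaks went together after BMH-21 (Spearman rho 0.52 over 201 pairs), and their scores did not (rho 0.003). These coefficients are across pairs of the same 2 libraries and carry no p-value.

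Among the pairs with the closest edges, some were narrow peaks with a high Pol I score. On chromosome 17 a Pol I peak at 42990553 to 42990810 (score 547.22) stood over a Pol II peak at 42990547 to 42990823 (score 179.33). Next to it, a Pol I peak of 129 bp from 42991084 to 42991212 began at the same base as a Pol II peak of 139 bp. On chromosome 20 the Pol I peak at 23615885 to 23616023 and the Pol II peak at 23615889 to 23616026 differed by 4 and 3 bp at their ends. Of the 201 pairs, 10 had both edges within 20 bp. What such closely matched peaks of both antibodies came from, here and in the leading loci below, could not be examined from peak lists. It was not tested.

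Part of the overlap was gathered in few places, and the rest was spread over many loci with 1 pair each or a few. Peaks of either list were joined to loci where the gap was at most 10 kb, which gave 8286 loci, of which 347 (4.19%) held both polymerases, 1148 (13.9%) Pol I only and 6791 (82.0%) Pol II only. The loci with both held 612 Pol I peaks (31.7% of that list) and 836 Pol II peaks (7.24%). In 217 of the 347 the peaks only neighboured each other, and 130 had an overlapping pair. Of those 130 loci, 105 had 1 pair, and the 10 loci with most pairs held 59 of the 201 pairs (29.4%) on 7 chromosomes. Loci with both polymerases were longer (median 5564 bp) than those with Pol I only (210 bp) or Pol II only (276 bp), which joining peaks produces in part by itself, and 92.2% and 79.1% of the latter were single peaks.

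High-scored Pol I peaks carried Pol II far more often than low-scored ones. A Pol II peak overlapped 15 of the 20 Pol I peaks with the highest scores (75%, interval 50.9 to 91.3%). It overlapped 44 of the top 100 (44.0%, interval 34.1 to 54.3%) and 38 of the 931 with a score under 60 (4.08%, interval 2.90 to 5.56%), against 9.52% of the whole list. The top 20 lay in 15 loci, with the overlapped ones in 12, and the top 100 lay in 52 loci, with the overlapped ones in 24. Peaks of 1 locus are not independent places, which the intervals do not take into account. The top 20 were also wide, with a median of 1894 bp, and width went with overlap as well. The share was 7.14% for Pol I peaks under 200 bp, 6.41% for those from 200 to under 300 bp, 17.2% for those from 300 bp to under 1 kb and 28.2% for those from 1 kb to under 10 kb. The median score of overlapped Pol I peaks was 83.1, against 59.8 for the others and 58.4 for those over 100 kb from Pol II.

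Pol II peaks seldom carried Pol I, and this held for the high-scored ones too. Of the 20 with the highest scores 1 was overlapped by a Pol I peak (5%, interval 0.127 to 24.9%), and of the top 100 there were 3 (3%, interval 0.623 to 8.52%), against 1.61% of the whole list. These peaks were wider than the leading Pol I peaks, with a median of 9272 bp in the top 20. The top 100 lay in 21 loci, so they are not independent places. Across the whole list the share overlapped still went from 1.04% in the lowest quintile of scores (interval 0.667 to 1.54%) to 3.03% in the highest (interval 2.37 to 3.82%). Whether score relates to overlap differently in the 2 lists was not tested, nor was the part of list length in the lower Pol II shares. Among Pol II peaks the share overlapped did not follow the order of width. A Pol I peak overlapped 31 of 509 Pol II peaks under 200 bp (6.09%, interval 4.18 to 8.53%), and 1.10% of those from 200 to under 300 bp (interval 0.860 to 1.38%). The share was 1.66% from 300 bp to under 1 kb (interval 1.28 to 2.11%) and 2.80% from 1 kb to under 10 kb (interval 1.58 to 4.58%). Of the 18 peaks of 10 kb or more, 3 were overlapped (16.7%, interval 3.58 to 41.4%).

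**Figure D2:**
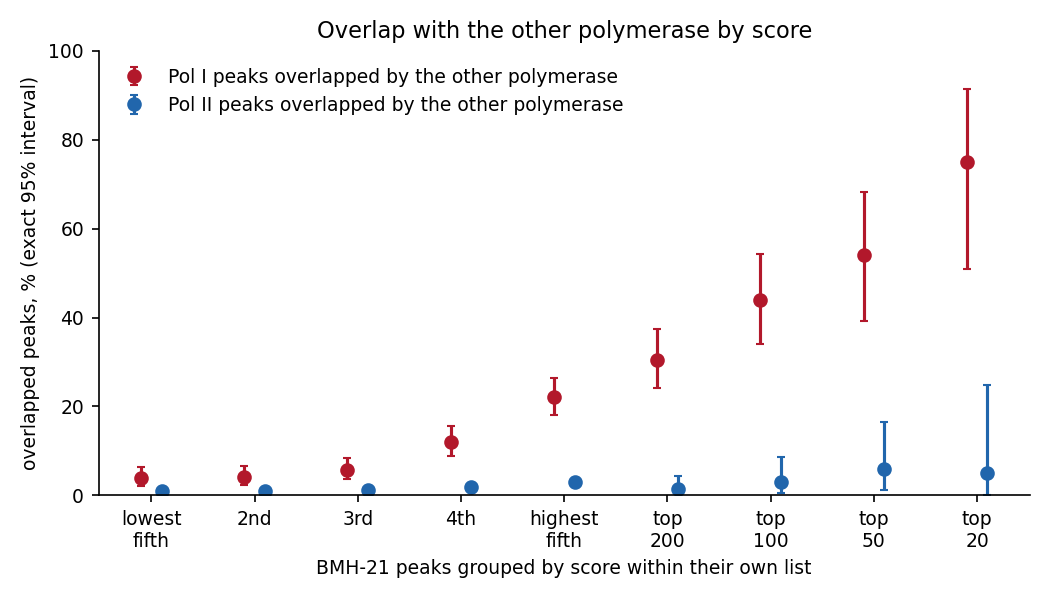
Share of BMH-21 peaks overlapped by a peak of the other polymerase (y axis, percent, with exact 95% intervals as bars) for quintiles of the score and for the highest-scored peaks of each list (x axis), with Pol I in red and Pol II in blue, the top groups being nested in each other. The Pol I share reaches 75% among the top 20, against 9.52% of its whole list. The Pol II share is 5% there, against 1.61% of its whole list.

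The 10 loci with both polymerases and the highest Pol I scores differed in how the peaks were arranged. No Pol II number was skipped within 8 of them. The first, on chromosome 5 at 82832792 to 82838210, held 3 Pol I peaks. The best of them was 4305 bp wide with a score of 3100, the highest of the Pol I list. Below it lay 3 Pol II peaks of 772, 249 and 225 bp with scores of 143.19, 74.86 and 69.45, all of them inside it.

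A broad Pol I peak over several narrower Pol II peaks was also found in other leading loci. On chromosome 2 at 217536829 to 217543807 stood 6 Pol I and 6 Pol II peaks, with top scores of 1745.42 and 96.72, and 94.1% of the Pol II bases lay under Pol I peaks. On chromosome 5 at 71489641 to 71505431 there were 12 Pol I and 9 Pol II peaks in 11 overlapping pairs, more than in any other locus, with top scores of 1089 and 124.01. All 9 Pol II peaks there were overlapped by Pol I, and 5 Pol I peaks were free of Pol II.

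In 2 other loci a Pol II peak with a high score stood beside the shared peaks without a Pol I peak on it. On chromosome 17 at 42983181 to 42992840 the best Pol II peak (score 782.91) took up the first 1561 bp of the locus, with no Pol I peak on it. Further along, 4 of 6 Pol I peaks met 4 of 5 Pol II peaks, the best Pol I peak scoring 1035.69. On chromosome 11 at 2150302 to 2156781 the best Pol II peak (1145 bp, score 1097.46) likewise lay at the low-coordinate end and free of Pol I, and the best Pol I peak (2226 bp, score 1553.34) covered 4 smaller Pol II peaks in part or whole. On chromosome 10 at 17275580 to 17279640, 4 peaks of each polymerase lay within 4.06 kb, and 3 of each were overlapped, with top scores of 1158.81 and 309.95.

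**Figure D3:**
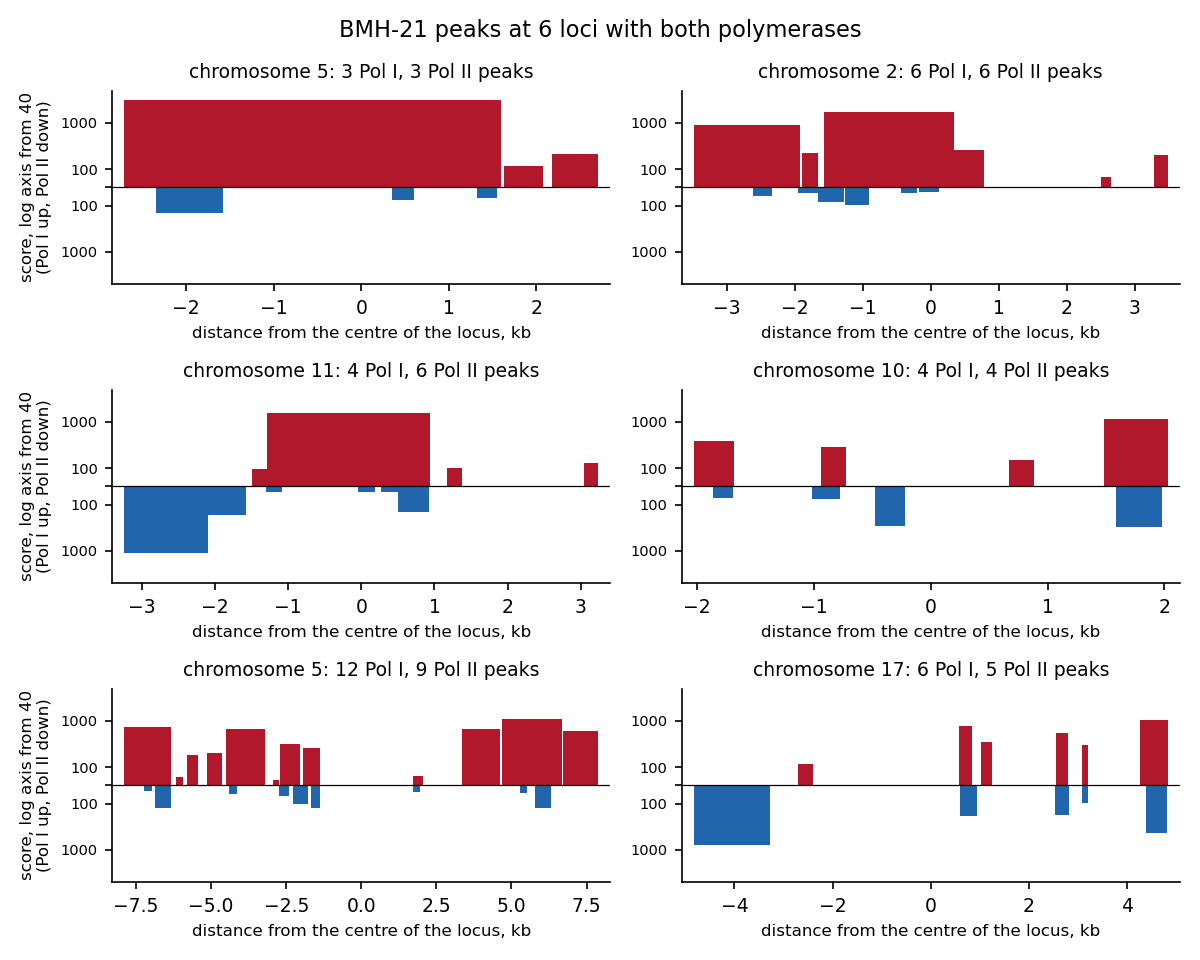
Peaks at 6 of the 10 leading loci with both polymerases, with distance from the centre of the locus on the x axis (kb) and the authors' score as bar height on a log axis that starts at 40 (Pol I in red upward, Pol II in blue downward). Most Pol II bars sit under a Pol I bar, and on chromosomes 11 and 17 the highest Pol II bar, with scores of 1097.46 and 782.91, has no Pol I bar over it.

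The other 4 leading loci were longer than 10 kb. On chromosome 5 at 146770377 to 146795453 there were 10 Pol I peaks, with a top score of 1470.68, and all 4 Pol II peaks lay inside Pol I peaks. On chromosome X at 13789717 to 13803925 there were 4 Pol I peaks and 1 Pol II peak (scores up to 896.27 and 51.2). The loci on chromosome 17 at 22246992 to 22263025 and on chromosome 2 at 92268962 to 92311326 were within 1 Mb of the longest stretch of their chromosome that holds no peak in any list. Their peaks were broad, with median widths of 3703 bp (Pol I) and 2999.5 bp (Pol II) in the first. The DMSO lists had no Pol I peak in 9 of the 10 loci and no Pol II peak in 9 of the 10. Because peaks of one antibody did not overlap between treatments, positions already under a BMH-21 peak were closed to DMSO peaks of that antibody.

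Near the ends of chromosomes 4 and 10 the polymerases met in 2 runs of another shape, chosen after their values were seen because they were among the 4 loci with most pairs. On chromosome 4 at 190986312 to 191012763, 14 Pol I and 12 Pol II peaks formed 9 pairs, with top scores of only 143.5 and 109.36. On chromosome 10 at 135473732 to 135501430, 13 Pol I and 10 Pol II peaks formed 7 pairs, with top scores of 148.79 and 106.01. The loci ended 29.2 and 22.1 kb before the last listed position of their chromosomes. The locus on chromosome 4 had more pairs than 9 of the 10 loci with the highest Pol I scores, and the one on chromosome 10 more than 8. Repeated sequence and read mapping could not be examined from peak lists. Whether the loci on chromosomes 4 and 10 are independent of each other was not tested.

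Dense runs of Pol II, defined as 10 or more peaks with no gap over 10 kb, mostly held no Pol I peak. Pol I peaks were nevertheless denser in them than over the whole listed span. Of 54 runs, 9 held a Pol I peak (16.7%, interval 7.92 to 29.3%), with 34 Pol I peaks in 3.42 Mb, or 9.93 per Mb. Of all 7157 Pol II blocks joined by the same gap, 149 (2.08%) were overlapped by Pol I blocks joined alike. Being without Pol I was thus not particular to the dense runs. Longer blocks have more room for a Pol I peak, and the part of length was not tested. By run, 2 of the 20 with a top score of 1000 or more held Pol I (10%, interval 1.23 to 31.7%) and 7 of the 34 with lower scores (20.6%, interval 8.70 to 37.9%), intervals that overlap. The 20 high-scored runs held 4 Pol I peaks in 1.96 Mb, or 2.04 per Mb, and Pol II peaks covered 84.9% of their length. The other 34 runs held 30 in 1.46 Mb, or 20.5 per Mb, and 24 of these were in the chromosome 4 and 10 runs near the ends. Over the whole listed span Pol I stood at 0.642 peaks per Mb. In the same high-scored runs the DMSO Pol I list had 114 peaks, or 58.03 per Mb against 14.1 over the span. In the runs with lower scores it had 30 peaks, as many as after BMH-21. As the BMH-21 and DMSO Pol I lists do not overlap, a base under a DMSO Pol I peak could hold no listed BMH-21 Pol I peak.

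The 4 Pol I peaks inside high-scored runs lay in 2 of the 20 runs, and their highest score was 74.91, against a list median of 60.7. On chromosome 1 the run at 84621449 to 84670072 held 3, with scores up to 74.91, and 2 of them lay under a Pol II peak of 15608 bp with a score of 3100. On chromosome 5 the run at 107541786 to 107664967 held 1, with a score of 59.78, under a Pol II peak of 32498 bp. The widest Pol II peak of the list, 133089 bp on chromosome 21 from 17783740 to 17916828, covered 4 Pol I peaks with scores from 53.85 to 68.98. Altogether 3 of the 18 Pol II peaks over 10 kb carried a Pol I peak, 7 Pol I peaks in all.

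Loci with Pol II and no Pol I within 100 kb included long blocks that Pol II peaks covered almost without a gap. The first by score, on chromosome X at 44730330 to 44825485, held 48 Pol II peaks over 94.4% of its 95.2 kb, with a top score of 3120.65, and the nearest Pol I peak was 1912 kb away. Several of the next loci tied at a top score of 3100 and were ordered by width. On chromosome 14 at 30296283 to 30406954, 47 peaks covered 85.9% and Pol I was 2154 kb away. On chromosome 8 at 134459640 to 134541517, 49 peaks covered 87.4% and Pol I was 5377 kb away. On chromosome 12 at 65032277 to 65105537, 47 peaks covered 93.3% and Pol I was 4637 kb away.

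The longest of these blocks were on chromosomes 18 and 21. The block on chromosome 18 at 55823391 to 56074257 had 177 Pol II peaks in 251 kb with Pol I at 111 kb. The block on chromosome 21 at 22370429 to 22549929 had 151 peaks in 179.5 kb with Pol I at 1063 kb, and a second one at 22828965 to 22880900 had 25 peaks. The remaining 3 had 10 peaks over 97.5% of chromosome 11 from 34642254 to 34691405, 11 peaks over 63.9% of chromosome 14 from 19672922 to 19705716, and 54 peaks over 91.2% of chromosome 3 from 176721619 to 176810193. In 9 of the 10 blocks no Pol II number was skipped, and the shorter block on chromosome 14 skipped 6. Between the Pol I peaks on either side of a block, 11 to 60 Pol I numbers were skipped, and 9 of the 10 blocks held 1 to 11 DMSO Pol I peaks. The blocks are thus without a listed BMH-21 Pol I peak, which does not show that Pol I was missing. Another 4 blocks without Pol I of comparable score missed the distance rule, with Pol I at 14.5 to 84.9 kb. The closest to Pol I was on chromosome 5 at 113715533 to 113811732. The one on chromosome 4 at 101935944 to 102089715, with Pol I at 46.8 kb, was 99.4% covered by Pol II peaks, more than any of the 10 named blocks.

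Pol I peaks far from Pol II were lower in score than Pol I peaks with Pol II on them. A score of 100 or more was found in 39.7% of the 184 overlapped Pol I peaks and in 13.96% of the 1748 without overlap. Of the 807 over 100 kb away, 81 (10.04%) had such a score. The highest was on chromosome 9 at 135894826 to 135895904 (score 906.7), with Pol II at 340 kb. On chromosome 5 a pair of Pol I peaks at 36687370 to 36688349 and 36686147 to 36687010 scored 565.84 and 410.19. Further ones were a peak with score 559.9 on chromosome 7 (5567534 to 5568362), one with 461.94 on chromosome 6 (121768244 to 121769210) and one with 455.57 on chromosome 14 (90871093 to 90871941). These were 829 to 1079 bp wide. Each of these 6 shared its locus with 1 to 5 further Pol I peaks.

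The other 4 of the 10 lay beside the longest peak-free stretch of their chromosome. On chromosome Y the peaks at 58890042 to 58895260 (score 645.23), 58870593 to 58879367 (497.05) and 58895328 to 58902549 (461.89) belonged to 1 block of 6 Pol I peaks that covered 99.5% of 35.0 kb. On chromosome X the peak at 61697613 to 61703261 (397.48) was in a block of 11 Pol I peaks, the most of any locus without Pol II, and the nearest Pol II midpoint was 3.12 Mb away. Within 1 Mb of such stretches lay 151 Pol I peaks (7.82% of the list), of which 13.2% were overlapped by Pol II (interval 8.28 to 19.7%), and 280 Pol II peaks (2.43%), of which 6.07% were overlapped by Pol I (interval 3.58 to 9.54%). Of those Pol I peaks 33.8% were over 1 kb wide, against 1.97% elsewhere. Repeated sequence and read mapping near these stretches could not be examined from peak lists, and their part in these values was not tested.

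**Figure D4:**
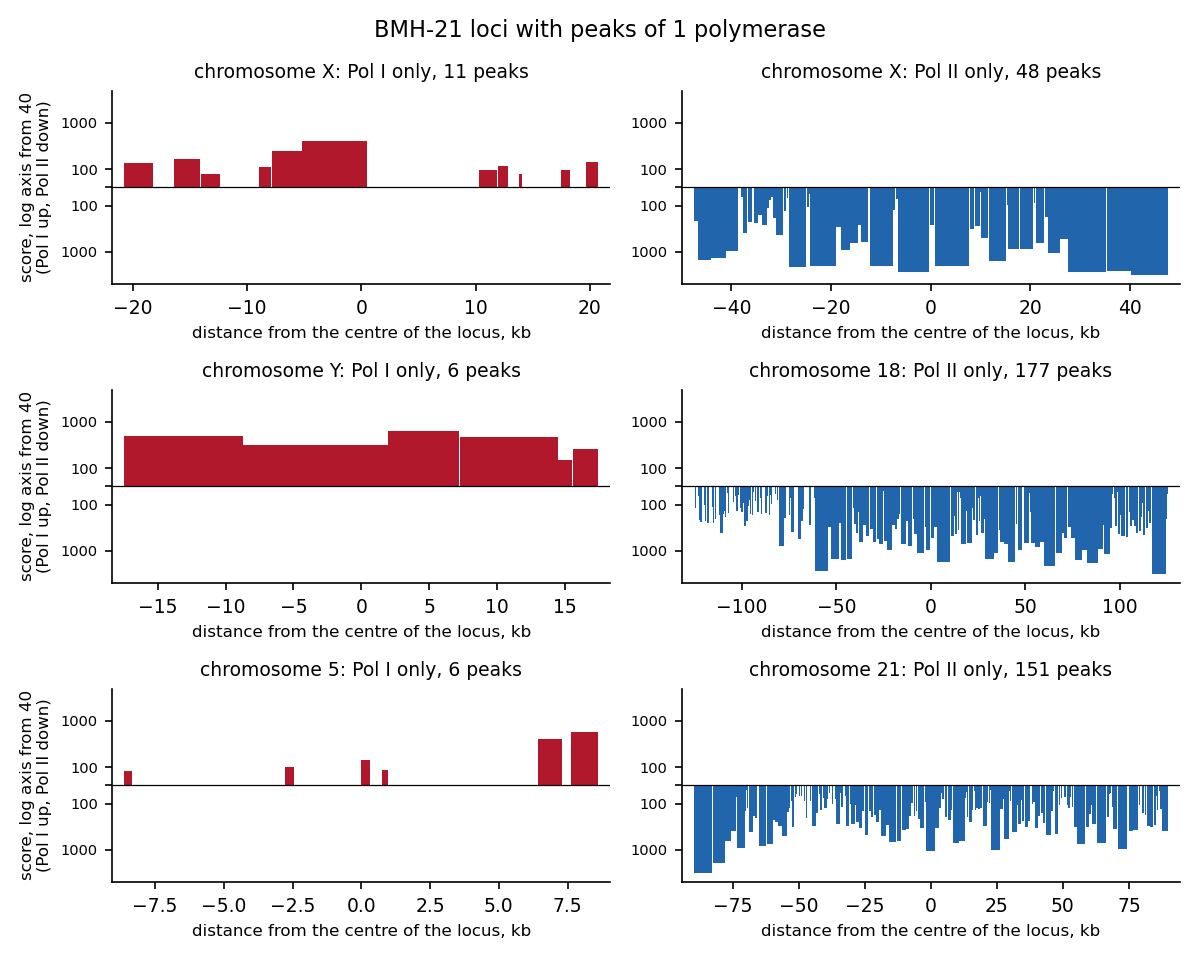
Peaks at 3 loci with Pol I only (left) and 3 with Pol II only (right), with distance from the centre of the locus on the x axis (kb) and the authors' score as bar height on a log axis that starts at 40 (Pol I in red upward, Pol II in blue downward). The Pol II blocks of 48, 177 and 151 peaks are nearly filled with bars, while among the Pol I loci only the block of 6 peaks on chromosome Y is.

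The running numbers limit how many of the lone peaks can be called free of the other polymerase. Numbers rose along all 24 chromosomes in both lists, so where the Pol II peaks on either side of a Pol I peak carry consecutive numbers, no numbered Pol II peak was left out between them. This held for 162 of the 1748 Pol I peaks without overlap (9.27%), at a median of 6.31 kb from Pol II. For 1573 (89.99%) the flanking Pol II numbers were not consecutive, and 13 lay beyond the first or last Pol II peak of a chromosome. For Pol II peaks without Pol I, 242 of 11354 (2.13%) lay between consecutive Pol I numbers. Among Pol I peaks of this kind was the highest-scored one without overlap, on chromosome 8 at 43833230 to 43838882 (score 1953.14), with Pol II 38.2 kb away. Another with a score over 1000 and no overlap, on chromosome 12 at 125396140 to 125398404 (score 1671.3), had Pol II at 16.4 kb and skipped Pol II numbers around it.

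In 1 Mb bins the densities of the polymerases were weakly related. Over 3110 bins the correlation of peak numbers was 0.20 (Pearson) and 0.29 (Spearman), and for DMSO it was 0.63 and 0.79. The BMH-21 Pol I list spreads 1932 peaks over these bins and the DMSO Pol I list 42547. The part of list length in the lower coefficients after BMH-21 was not tested. Bins share the libraries, mappability and copy number, and no p-value is given. Among the 2356 bins with a peak of either list the coefficients were 0.15 (Pearson) and 0.074 (Spearman), and over bases covered per bin 0.0795 (Pearson) and 0.30 (Spearman). Both polymerases had peaks in 882 bins (28.4%), Pol I alone in 182 (5.85%), Pol II alone in 1292 (41.5%) and neither in 754 (24.2%). The share of bins with a Pol I peak was 19.4% where Pol II had no peak (interval 16.9 to 22.1%), 46.7% with 5 to 9 Pol II peaks (interval 41.8 to 51.7%) and 60.6% with 10 to 19 (interval 53.9 to 67.03%). With 20 or more it was 59.2% (interval 47.3 to 70.4%).

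None of the 5 bins with most Pol I peaks was among the 5 with most Pol II peaks, although all 5 held both polymerases. Pol I had most peaks on chromosome 4 from 49 to 50 Mb (26 Pol I and 53 Pol II peaks), followed by chromosome 7 from 128 to 129 Mb (25 and 9), chromosome 5 from 38 to 39 Mb (18 and 3) and from 71 to 72 Mb (15 and 13), and chromosome 10 from 135 to 136 Mb (14 and 16). Pol II had most on chromosome 21 from 22 to 23 Mb (223 Pol II and 0 Pol I peaks), chromosome 5 from 69 to 70 Mb (155 and 8), chromosome 18 from 55 to 56 Mb (144 and 1), chromosome 14 from 30 to 31 Mb (141 and 0) and chromosome 5 from 70 to 71 Mb (130 and 7). Both ranked high together in the chromosome 4 bin, in the chromosome 5 bins from 69 to 71 Mb, on chromosome 1 from 84 to 85 Mb (6 Pol I and 23 Pol II peaks) and on chromosome 19 from 58 to 59 Mb (5 and 27).

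**Figure D5:**
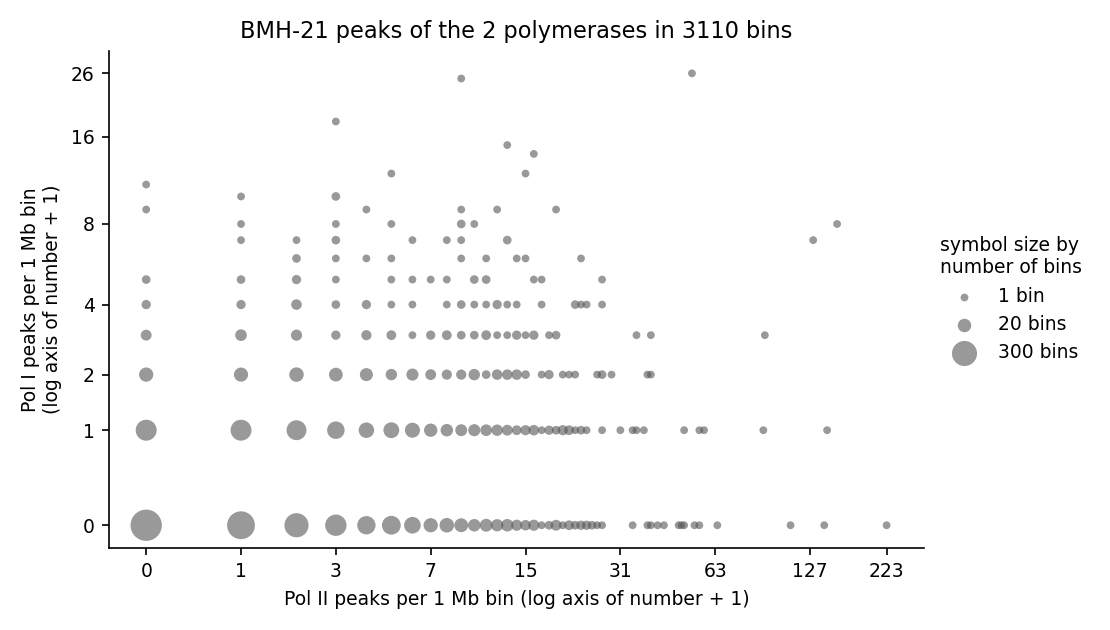
Number of BMH-21 Pol I peaks (y axis) against number of BMH-21 Pol II peaks (x axis) in 3110 bins of 1 Mb, both on a log axis of the number plus 1, with larger symbols where more bins coincide. The bin with most Pol II peaks (223) has 0 Pol I peaks, and the bin with most Pol I peaks (26) has 53 Pol II peaks.

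By chromosome, the balance of the polymerases varied about its median of 5.71 Pol II peaks per Pol I peak. The ratio was lowest on chromosome Y, at 2.42 (33 Pol I and 80 Pol II peaks), followed by chromosome 4 at 3.77 and chromosome 7 at 4.16. It was highest on chromosome 16 at 10.5 and chromosome 21 at 10.2. Of the dense Pol II blocks described above, those at 22370429 to 22549929 and at 22828965 to 22880900 lie on chromosome 21. Their part in its ratio was not tested. Across the 24 chromosomes the densities per Mb had a Pearson coefficient of 0.70 and a Spearman coefficient of 0.48, given as a description. The share of Pol I peaks overlapped by Pol II ran from 0 of 28 on chromosome 22, which allows a share of up to 10.7% by a limit of 3 counts and 12.3% by the exact interval, to 8 of 35 on chromosome 21 (22.9%, interval 10.4 to 40.1%). Chromosome 7 had 2 of 139 (1.44%, interval 0.175 to 5.10%) and chromosome 5 had 27 of 193 (13.99%, interval 9.43 to 19.7%). On chromosome 5, 7 of the 27 lay in the locus at 71489641 to 71505431. These are 2 of 24 chromosomes and their peaks cluster in loci, so the intervals are no test of a difference. Chromosome 19, with the most Pol I and Pol II peaks per Mb, had 3 of 69 overlapped (4.35%, interval 0.906 to 12.2%) although its median distance, 12.2 kb, was the smallest of all chromosomes.

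Last, the BMH-21 peaks were set against the DMSO list of the other antibody. A DMSO peak and a BMH-21 peak of one antibody never overlapped, so a peak on its BMH-21 partner has little room to lie on a DMSO partner peak as well. The shares are given as values only. Over all peaks, 3.62% of Pol I peaks (70 of 1932) lay on a DMSO Pol II peak and 9.01% of Pol II peaks (1040 of 11540) on a DMSO Pol I peak. Of the 184 Pol I peaks under BMH-21 Pol II peaks, 0 were overlapped by a DMSO Pol II peak, which allows a share of up to 1.63% by a limit of 3 counts and 1.98% by the exact interval. Of the 807 far from BMH-21 Pol II, 26 were (3.22%, interval 2.12 to 4.69%). Among Pol II peaks, 6 of 186 with Pol I on them were overlapped by a DMSO Pol I peak (3.23%, interval 1.19 to 6.89%), and 888 of 9009 over 100 kb from Pol I were (9.86%, interval 9.25 to 10.5%).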

How the data were processed

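Chromatin immunoprecipitation with sequencing was done by the authors, who deposited 1 list of peaks per ChIP library. Per the file headers each peak has a position, a name with a running number and a value called pValue. Its values start at 50, so it is no p-value on its own scale, and the deposited value is treated as the authors' score. The tools named, per the submitters' processing notes, are Bowtie2 2.2.1, CASAVA 1.8.2 and deepTools 3.5.4, with the build hg19. The peak names begin with MACS, a peak caller. How it was run, how the inputs entered and why numbers are skipped is not given in the sources used here.

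Starts were converted to the first base. Overlap meant 1 bp or more, distances were taken between midpoints on a chromosome unless edges are named, and bins ran to the last listed peak of a chromosome. Functions were tested on simulated data. Regions were named by rule: the 10 loci with both polymerases and the highest Pol I score, the 10 highest-scored Pol I peaks over 100 kb from Pol II, the 10 highest-scored Pol II loci over 100 kb from Pol I, and the 5 leading bins of each kind. Ties in Pol II score were ordered by width. Members, rules and alternatives were chosen with earlier results of these data known. Python 3.11.15, NumPy 2.4.6, pandas 2.3.3, SciPy 1.17.1 and matplotlib 3.10.9 were used.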

Additional observations from a re-analysis of the deposited data

How the results depend on the processing

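For 14 results, 70 values under other settings were computed. For a share of peaks, staying within its interval counted as little change, and for other results staying within 1.5 times. By this 41 changed little and 29 changed more. Only the bin correlations could change sign, since the other results cannot be negative, and 0 of the correlations did. The ratio of median widths of Pol II peaks with and without Pol I, 1.04, turned to 0.989 without peaks beside the longest peak-free stretch. The direction of that ratio was thus reversed, although the change counted as little. The tolerance of edges and the alternatives for score and width were chosen after seeing the data. The share of Pol I peaks with Pol II became 15.01% within 1000 bp, 29.3% within 10000 bp, 11.5% for peaks at or above the median score of their own list and 13.6% for peaks of at least 300 bp. The share of Pol II peaks with Pol I became 2.22%, 5.42%, 1.92% and 1.30% under these, and 2.08% for blocks with gaps up to 10 kb. The median distance of Pol II peaks from Pol I became 1277 kb at the median score and 3037 kb at 300 bp, where the Pol I list is down to 966 and 434 peaks. Bins of 5 Mb gave a Pearson coefficient of 0.33, covered bases per bin 0.0795, and bins with a peak of either list a Spearman coefficient of 0.074. The cause was not tested. Loci with both polymerases, Pol I only and Pol II only numbered 169, 1748 and 11354 for touching peaks and 642, 647 and 3272 for a gap of 100 kb, 132, 534 and 3482 at the median score, and 68, 199 and 2474 at 300 bp; with a gap of 1000 bp loci with both numbered 199. Fewer peaks or a wider gap change these counts by construction. Both edges of a pair lay within 20 bp in 4.98% and within 100 bp in 35.3%. No paired analysis was possible because each antibody and treatment has 1 library. The lists hold no read counts, so depth could not be taken into account.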
